A study of Rattus norvegicus with 32 samples.

Results

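The genes followed here belong to the NRF2 antioxidant response, in the left ventricle of male and female rats after sham surgery, after caecal ligation and puncture (CLP), and after CLP with an infusion of landiolol. They were chosen by name: Nfe2l2, Hmox1, Nqo1, Gclc, Gclm, Txnrd1, Srxn1, Gsr, Sod2 and Prdx1. Among 19831 gene names on the array these 10 were found on 11 of its 45598 non-control probes, because Txnrd1 has 2. A gene was represented by the probe with its highest mean over all arrays. In each sex 9 of the 10 genes had a probe bright enough to be tested, and every array measured those 9 well above background, so none entered the test only through the group in which it was high. Gclm was not tested.

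NRF2, the protein made from Nfe2l2, is a transcription factor that KEAP1 holds in the cytoplasm and hands to the proteasome in unstressed cells. When oxidants or electrophiles modify KEAP1, NRF2 accumulates, enters the nucleus, pairs with a small MAF protein and binds antioxidant response elements near its target genes. Those targets make glutathione, reduce thioredoxin and peroxiredoxin, detoxify quinones and break down haem. In the heart the pathway is known as a defence against oxidant injury, and haem oxygenase-1, the product of Hmox1, is also induced through other stress and inflammatory factors.

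Each sex contributed 5 sham hearts, 5 CLP hearts and 6 hearts of CLP plus landiolol, all collected at 20 h, and each heart gave RNA for 1 array. The rats were Wistar. CLP is a surgical model of polymicrobial sepsis from the gut, landiolol, which blocks the beta-1 adrenergic receptor for a short time, was infused after CLP, and CLP rats without it received saline. The hearts had been imaged in vivo and perfused ex vivo before they were frozen, and RNA of lower quality was not put on arrays, so the RNA is that of selected, handled, whole ventricles. Because they are bulk samples, fewer cells of a type and less RNA per cell cannot be told apart. The 6 cardiomyocyte markers (such as Myh6 and Tnnt2) were well above background on every array, as the labelled tissue requires. Between 34920 and 43155 of 58717 spots per array were well above background and no spot was saturated. Male and female arrays were on different slides, so levels are compared within a sex only.

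The probes behind the results are shown first, since each value below is the brightness of 1 such 60-base oligonucleotide, and the Gclm probe is shown because it was the member that could not be measured. Positions are those the array files give, on rat build rn4, and no exon annotation of that build was used here. The Hmox1 probe lies at chr19:13969336-13969395, the Nfe2l2 probe at chr3:58367137-58367196, the Nqo1 probe at chr19:37251727-37251786 and the Gclm probe at chr2:218915215-218915274. The brighter Txnrd1 probe lies at chr7:23055528-23055561, a placement of only 34 of its bases, and the dimmer at chr7:23065196-23065255. No part of these sequences is capitalised.
Hmox1 probe: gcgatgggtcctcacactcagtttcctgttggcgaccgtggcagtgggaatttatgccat
Nfe2l2 probe: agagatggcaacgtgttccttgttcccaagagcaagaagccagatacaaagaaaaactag
Nqo1 probe: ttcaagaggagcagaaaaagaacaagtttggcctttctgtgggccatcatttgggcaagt
Txnrd1 brighter probe: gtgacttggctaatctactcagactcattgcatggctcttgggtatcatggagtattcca
Txnrd1 dimmer probe: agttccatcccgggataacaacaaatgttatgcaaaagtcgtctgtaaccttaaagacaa
Gclm probe: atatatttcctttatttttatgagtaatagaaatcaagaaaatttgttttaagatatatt
G and C make up 55% of the Hmox1 probe and 15% of the Gclm probe, the lowest share among the 11. The Gclm probe was well above background on no male array and on 1 female array, of CLP plus landiolol, where its log2 level was 4.66. All 5 male shams, for example, lay between 1.93 and 2.17.

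Levels below are log2 processed signals, quantile-normalised within a sex, so a difference of 1 is a doubling of signal. Differences were tested with limma over all probes kept, with Benjamini-Hochberg adjustment, at an FDR of 1% against sham and of 5% for CLP plus landiolol against CLP. CLP was followed by a large rise of Hmox1 in both sexes, to 7.51-fold the sham signal in males and 8.95-fold in females. Nfe2l2 itself rose in males by 0.53. No other member passed the test after CLP. With landiolol, Hmox1 fell against CLP in males by 1.75, to a level still above most shams.

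In males, 2 of 9 members were called higher after CLP and 0 lower, where 3.87% of all 25864 probes were called higher and 3.94% lower. In females, 1 of 9 was called higher and 0 lower, against 1.82% and 1.82% of 25394 probes. At an unadjusted p under 0.05, limma counted 5 of 9 members in males, beside 28.8% of all probes, and 2 of 9 in females, beside 23.1%, a share like that of the members. SAM, the test of the study, called 1 member in each sex, and 2525 of all male and 1250 of all female probes. Groups did not overlap, CLP being higher, for Hmox1 and Nfe2l2 in males and for Hmox1 in females, where 6.11% of all male and 3.95% of all female probes did so. Over the 9 members the median difference was 0.31 in males and 0.18 in females, and over all probes it was 0.01 and -0.01 (percentages, counts and medians describe the list and were not tested as a list).

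Hmox1 encodes the enzyme that opens haem into biliverdin, carbon monoxide and iron. Its levels in the male shams were 10.79, 10.86, 10.93, 11.05 and 11.62. In male CLP they were 13.19, 13.80, 13.80, 14.49 and 14.51. Every CLP heart thus lay above every sham heart by more than the range of the shams. The difference of the means was 2.91 (SE 0.28, n = 5 and 5, limma adjusted p = 1.093e-05), the rank 53 from the top among all male differences. It was 2.59 on slide 1 and 3.22 on slide 2.

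In females the shams were at 10.42, 10.72, 11.04, 11.11 and 11.35, and CLP at 13.18, 13.39, 14.14, 14.53 and 15.21. The groups again did not overlap, and the CLP hearts spread more widely (SD 0.83) than the shams (SD 0.36). The difference was 3.16 (SE 0.44, limma adjusted p = 0.0003916), rank 31 from the top among the female differences. Within slides it was 3.38 and 3.04. All female shams were in row 1 of their slides and the CLP hearts in rows 1 and 2, so row was partly tied to this comparison. Over 11 other settings of the analysis the difference ran from 3.07 to 3.57.

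**Figure D1:**
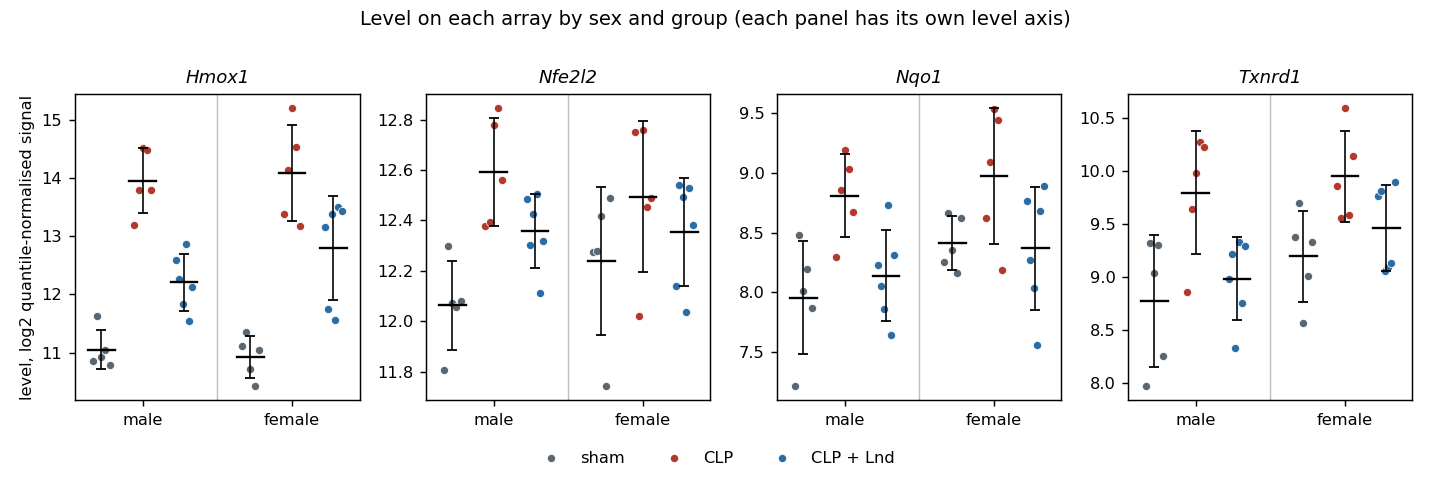
Log2 quantile-normalised signal (vertical axis, a separate scale in each panel) of Hmox1, Nfe2l2, Nqo1 and Txnrd1 on each of the 32 arrays, by sex and group; points are arrays, horizontal lines group means and vertical bars 1 SD. Hmox1 separates sham from CLP in both sexes, and the male CLP plus landiolol hearts lie below every male CLP heart.

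Nfe2l2 encodes NRF2. Male shams lay at 11.81, 12.06, 12.07, 12.08 and 12.30 and male CLP at 12.38, 12.40, 12.56, 12.78 and 12.85. The groups did not overlap, but the gap between the highest sham and the lowest CLP heart was small beside either range. The difference was 0.53 (SE 0.13, 1.44-fold, limma adjusted p = 0.00917), just inside the FDR of 1%. The call was lost in 7 of 11 other settings and when any of 12 of the 16 male arrays was left out, while the difference stayed between 0.46 and 0.59. In females the shams lay between 11.74 and 12.49 and CLP between 12.02 and 12.76, and the groups overlapped. The difference was 0.25 (SE 0.18, limma adjusted p = 0.4307), and it was -0.16 on slide 3 and 0.66 on slide 4.

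Nqo1 encodes a quinone reductase that spares cells the one-electron cycling of quinones. Male shams lay at 7.22, 7.87, 8.01, 8.20 and 8.48 and male CLP at 8.30, 8.67, 8.85, 9.03 and 9.19. Only the lowest CLP heart fell within the range of the shams. The difference was 0.85 (SE 0.24, limma adjusted p = 0.02454), short of the FDR of 1%. In females the difference was 0.56 (SE 0.28, limma adjusted p = 0.2428), with CLP between 8.19 and 9.53 overlapping shams between 8.16 and 8.67.

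Txnrd1 encodes the cytosolic reductase that keeps thioredoxin reduced. On its brighter probe, male shams lay at 7.97, 8.25, 9.04, 9.30 and 9.32 and male CLP at 8.86, 9.64, 9.99, 10.23 and 10.28. The groups overlapped through a single CLP heart. The difference was 1.02 (SE 0.32, limma adjusted p = 0.03703), and on the dimmer probe 0.93 (SE 0.28, limma adjusted p = 0.03246) with no overlap. In females the brighter probe gave 0.75 (SE 0.26, limma adjusted p = 0.07888) and the dimmer 0.43 (SE 0.32, limma adjusted p = 0.4657). Both probes thus gave the same sign in both sexes, and neither passed the FDR of 1%. At an FDR of 5%, 4 male members would have been called, Nqo1 and Txnrd1 being added.

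The remaining enzymes of the thioredoxin and glutathione arms gave no call. Srxn1 encodes sulfiredoxin, which repairs over-oxidised peroxiredoxin, and its difference after CLP was 0.19 (SE 0.42) in males and -0.53 (SE 0.32) in females. Prdx1 encodes a peroxiredoxin that reduces hydrogen peroxide, with 0.01 (SE 0.28) and -0.34 (SE 0.26). Gsr, glutathione reductase, gave -0.02 (SE 0.16) and -0.25 (SE 0.21). Gclc, the catalytic subunit of the enzyme that starts glutathione synthesis, gave -0.06 (SE 0.21) and 0.18 (SE 0.43), and its female shams alone ranged from 9.98 to 12.69. The limma adjusted p of these 4 genes after CLP ran from 0.3645, of Srxn1 in females, to 0.9855, of Prdx1 in males. A p of this size does not show that they did not differ.

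Sod2 encodes the mitochondrial superoxide dismutase, which responds to inflammatory factors as well as to NRF2. Male shams lay between 13.41 and 13.82 and male CLP in the narrow range from 13.77 to 13.96. The difference was 0.31 (SE 0.14, limma adjusted p = 0.1503). In females it was 0.02 (SE 0.17, limma adjusted p = 0.9619), with 1 sham at 14.04 above all CLP hearts.

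**Figure D2:**
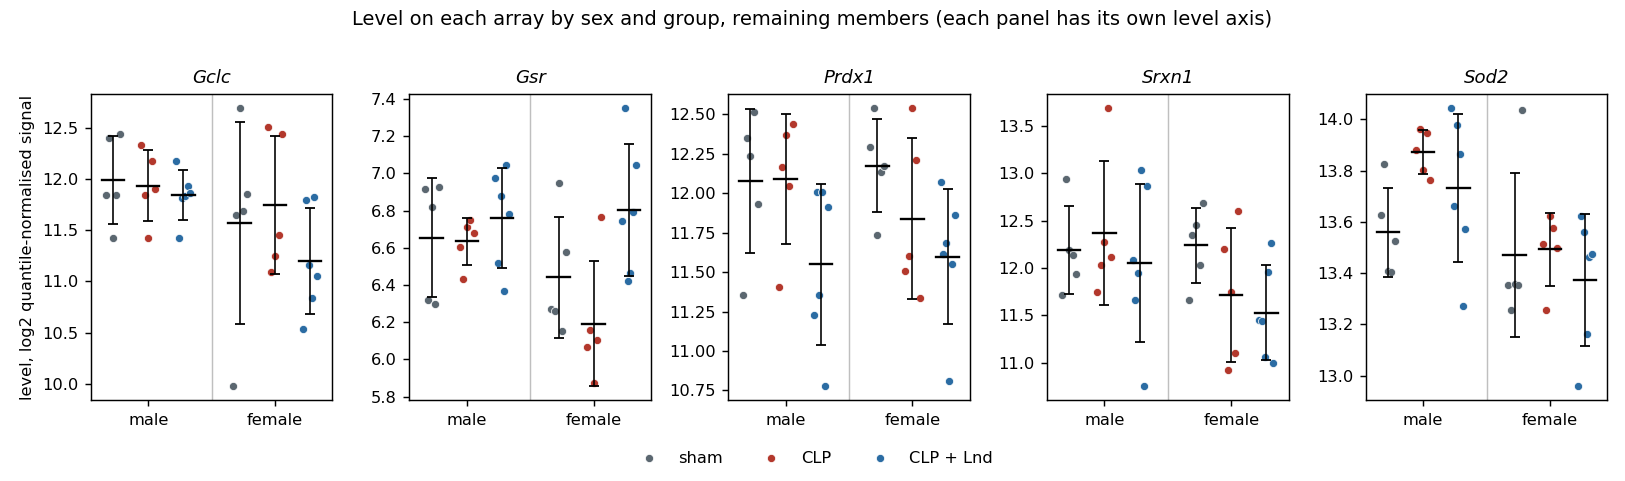
Log2 quantile-normalised signal (vertical axis, a separate scale in each panel) of Gclc, Gsr, Prdx1, Srxn1 and Sod2 on each array, by sex and group; points are arrays, lines group means and bars 1 SD. Sham and CLP overlap in every panel and sex, and single arrays stand apart, such as the male CLP array at 13.69 for Srxn1.

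With landiolol, 1 of 9 male members was called lower against CLP and 0 higher, where 0.754% of probes were called lower and 0.804% higher. That gene was Hmox1. The 6 male hearts of CLP plus landiolol ranged from 11.55 through a median of 12.20 to 12.88, and all 6 lay below the lowest CLP heart, at 13.19. Of all male probes, 1.08% had the groups apart in that direction. The difference was -1.75 (SE 0.27, limma adjusted p = 0.004961), a signal 3.37-fold lower, rank 47 from the lowest. It was -1.61 on slide 1 and -1.96 on slide 2, and it stayed past the FDR of 5% in all 11 other settings and without any 1 of the 16 male arrays.

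The other male members were not called against CLP. Txnrd1 differed by -0.81 (SE 0.30, limma adjusted p = 0.2136), Nqo1 by -0.67 (SE 0.23, limma adjusted p = 0.1808) and Prdx1 by -0.54 (SE 0.27, limma adjusted p = 0.3638). Nfe2l2 differed by -0.23 (SE 0.12, limma adjusted p = 0.3867), its 6 hearts ranging from 12.11 to 12.51 across the space between sham and CLP. Of the 9 differences 8 were below 0, where 49.1% of all male probes were above 0, and Gsr was the exception at 0.13 (SE 0.16). The 9 are not separate observations, since some members varied together among hearts of a group, as given below. This contrast also shares the CLP arrays with that against sham, and the count was not tested. At an unadjusted p under 0.05, limma counted 3 of 9, beside 14.8% of all probes.

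In females 0 of 9 members were called against CLP, where 0.0512% of probes were called higher and 0.0433% lower. At an unadjusted p under 0.05, limma counted 3 of 9, beside 9.34% of all probes, and SAM called 0. Those 3 were Hmox1, Nqo1 and Gsr. Of the 9 differences 8 were below 0, Gsr again being the exception, where 54.8% of all female probes were above 0. The limits given for the male count hold here too. Hmox1 in CLP plus landiolol lay at 11.57, 11.75, 13.15, 13.39, 13.44 and 13.50. Arrays 2 and 4 of the group were low, and 3 of the others fell inside the CLP range, so the groups overlapped, whereas 0.417% of female probes had them apart and lower. The difference was -1.29 (SE 0.42, limma adjusted p = 0.2966), and within slides -0.99 and -1.67. Nqo1 differed by -0.61 (SE 0.27, limma adjusted p = 0.4924). Gsr differed by 0.61 (SE 0.20, limma adjusted p = 0.3117), with CLP plus landiolol between 6.42 and 7.35 and CLP between 5.87 and 6.76. All treated female hearts were in row 2 of their slides and the CLP hearts in rows 1 and 2, so row was partly tied to this comparison too. Over 11 other settings the Hmox1 difference ran from -1.646 to -1.055 and that of Gsr from 0.343 to 0.785.

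**Figure D3:**
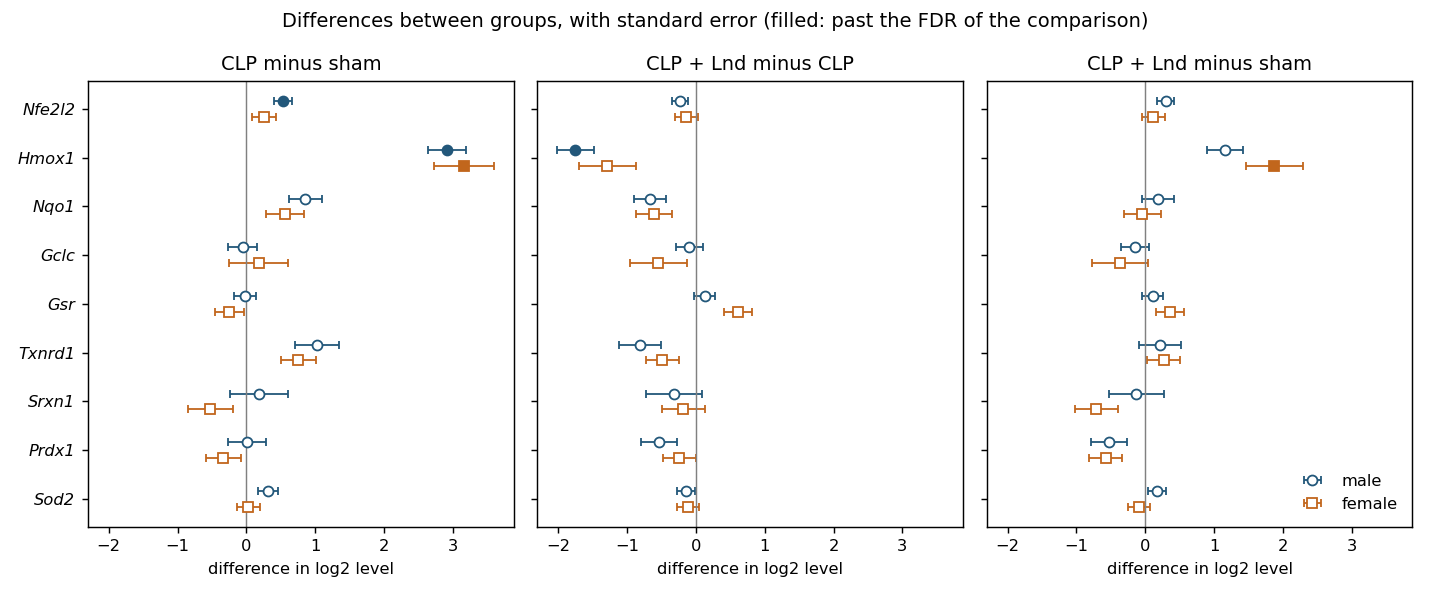
Difference in log2 level (horizontal axis) of the 9 tested members for CLP minus sham, CLP plus landiolol minus CLP, and CLP plus landiolol minus sham, in males (circles) and females (squares); bars are the standard error of limma and filled symbols passed the FDR of the comparison. Hmox1 is the farthest from 0 in each panel and sex, at 2.91 and 3.16 after CLP.

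Against sham, Hmox1 in CLP plus landiolol stayed higher by 1.88 in females (SE 0.42, limma adjusted p = 0.007939), with no overlap, and by 1.16 in males (SE 0.27, limma adjusted p = 0.01211), short of the FDR of 1% and with 1 sham above the lowest treated heart. The means of CLP plus landiolol thus kept 39.8% of the male and 59.3% of the female log2 rise. For this contrast 1 of 9 female and 0 of 9 male members were called. The background was 3% higher and 2.24% lower in females, and 2.4% higher and 1.76% lower in males. The groups did not overlap, treated being higher, for 5.57% of female and 4.23% of male probes. At an unadjusted p under 0.05, limma counted 2 of 9 male members, Hmox1 and Nfe2l2, beside 24.2% of all probes, and 3 of 9 female members, Hmox1, Srxn1 and Prdx1, beside 26.7%. SAM called 1 in each sex. These shares of the members are near those of all probes. Position on the slide moved with this female comparison: all female shams were in row 1 and all female hearts of CLP plus landiolol in row 2, and with row in the model the difference was 2.26 with a limma adjusted p of 0.3027. In females Srxn1 differed from sham by -0.71 (SE 0.31, limma adjusted p = 0.1527) and Prdx1 by -0.58 (SE 0.25, limma adjusted p = 0.1409).

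Whether males and females differed was tested as an interaction on all 32 arrays normalised together, at an FDR of 5%. For CLP against sham 0 of 9 members and 0% of 26490 probes were called. The same held for CLP plus landiolol against CLP (0 of 9, 0%) and against sham (0 of 9, 0%). At an unadjusted p under 0.05, limma counted 0 of 9 members in each of these contrasts, and 3.76%, 4.93% and 6.3% of all probes. For Hmox1 the male difference minus the female was -0.24 (SE 0.54) after CLP, -0.50 (SE 0.51) for landiolol against CLP and -0.74 (SE 0.51) for landiolol against sham, with limma adjusted p of 0.9999, 0.9685 and 0.8919. The calls made in 1 sex only, of Nfe2l2 after CLP and of Hmox1 under landiolol, are therefore not shown to differ between the sexes.

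Hearts of the same group also differed among themselves, and some members did so together. After the mean of its group was taken from each array, Hmox1 and Nqo1 had a Pearson r of 0.84 over the 16 male arrays (Spearman 0.90) and 0.81 over the 16 female arrays (Spearman 0.78). Without the 2 arrays farthest from the median in Hmox1, r was 0.76 and 0.81. Nfe2l2 and Hmox1 had an r of 0.83 in males (Spearman 0.72) and 0.26 in females (Spearman 0.22), and Srxn1 had opposite signs in the sexes (0.76 and -0.36). Prdx1 gave 0.59 and 0.79, and Gsr -0.40 and -0.34. These are descriptions over arrays that share slides and scans, 8 members having been set against Hmox1 in each sex, and no p was computed. The brightness of an array, its median processed signal, moved with these deviations: r with Hmox1 was 0.57 in males and 0.39 in females, and with Nqo1 0.73 and 0.56. The part of brightness in the shared variation was not tested.

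**Figure D4:**
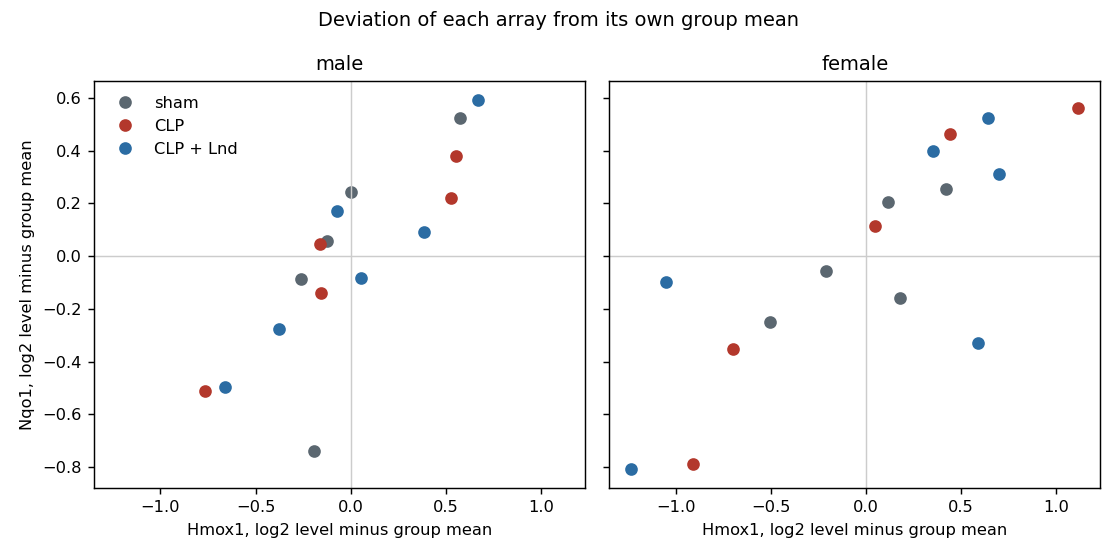
Deviation of Nqo1 (vertical axis) against that of Hmox1 (horizontal axis), both as log2 level minus the mean of the array's own group, for 16 male and 16 female arrays; each point is an array, coloured by group. Points of all 3 groups rise together in both panels, with r of 0.84 and 0.81.

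Among 13389 named genes, the 5 whose levels ran most like those of Hmox1, by the mean of the male and the female Pearson r over 16 arrays each, were B4galt1 (0.96 and 0.91), Tedc2 (0.94 and 0.90), Slc39a14 (0.94 and 0.89), Fndc3b (0.94 and 0.88) and Myot (0.88 and 0.92). B4galt1 is a galactosyltransferase, Slc39a14 a zinc and iron transporter, and Myot a Z-disc protein of striated muscle. These r hold the group differences as well as the spread within groups. Myot, for example, differed after CLP by 3.28 in males and 3.41 in females, and between CLP plus landiolol and CLP by -1.43 and -1.20. No other member was among the 5.

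The other genes around the pathway were taken from 5 lists, each gene by its brightest probe. After CLP, 9 of their 72 tested genes were called higher and 3 lower in males, and 4 and 2 in females. Of all probes, 3.87% were called higher and 3.94% lower in males, and 1.82% each way in females. Keap1, the inhibitor of NRF2, differed after CLP by 0.22 (SE 0.16) in males and 0.17 (SE 0.22) in females and was not called. Of 13 regulators and partners of NRF2, 2 rose in males after CLP and 0 fell. Sqstm1, the autophagy receptor p62 that binds KEAP1, rose by 0.77 in males (limma adjusted p = 0.001042) and 0.95 in females (limma adjusted p = 0.003267), where it was the only call among the 13. The second male call was Btrc, a ubiquitin ligase subunit that acts on NRF2, at 0.44 (limma adjusted p = 0.005863), whose other probe gave 0.30 and was not called, and the call was lost in 4 of 11 other settings and when any of 7 male arrays was left out. The other 2 probes of Sqstm1 gave 0.91 and 0.57 in males and 1.04 and 0.78 in females, and only the last of these was called. Gsk3b, also among the 13, gave -0.003 on its brightest probe in males and is not in the count. Its dimmest probe gave 0.84 (limma adjusted p = 0.002992) and would have been called, and its remaining probes gave -0.02, -0.065 and -0.06.

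Of 28 other NRF2 targets, 25 were tested in males and 3 rose after CLP: Mgst1, a microsomal glutathione transferase, by 2.12, Ugt1a6, a glucuronosyltransferase, by 0.68, and Ftl1, the ferritin light chain, by 0.66. The highest limma adjusted p of these was 0.005692. The Mgst1 call was lost in 1 of 11 other settings and when any of 7 male arrays was left out. In females 0 of 24 were called. Of the list, limma counted 6 genes in males and 5 in females at an unadjusted p under 0.05, near the shares of all probes of 28.8% and 23.1%, and SAM called 4 and 0. The median difference of the list was 0.10 in males and 0.06 in females, beside 0.01 and -0.01 over all probes. Among 17 other antioxidant enzymes, Gss, glutathione synthetase, rose by 0.87 in males and 0.96 in females, and Sod3, the extracellular superoxide dismutase, fell by 0.75 in males, the female difference being -0.74 and not called (limma adjusted p = 0.02121). The female call of Gss (limma adjusted p = 0.00957) was lost in 6 of 11 other settings and without any of 14 of the 16 female arrays.

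Oxidant-producing enzymes moved in both directions after CLP. In males 3 of 10 rose and 1 fell: Ncf4 by 1.61 and Rac2 by 1.37, both parts of the phagocyte NADPH oxidase, and Xdh, xanthine dehydrogenase, by 0.84 rose, and Ncf1, another oxidase subunit, fell by 1.42. In females 2 of 11 rose, Ncf4 by 1.28 and Rac2 by 1.28, and Ncf1 fell by 1.71. Of all probes, 3.87% were called higher and 3.94% lower in males, and 1.82% each way in females. At an unadjusted p under 0.05, limma counted 7 of 10 in males and 5 of 11 in females, beside 28.8% and 23.1% of all probes. SAM called 5 and 3 of this list. The second Ncf1 probe had the same sign in both sexes and was not called. Of the 8 genes for haem handling 7 were tested, and Alas1, which catalyses the first and limiting step of haem synthesis, fell by 1.60 in males and 1.85 in females while none rose. In males the calls of Xdh and Alas1 were each lost in 1 of 11 other settings, and when any of 6 arrays (Xdh) or 7 arrays (Alas1) was left out. In females that of Ncf1 was lost in 2 settings and without any of 6 arrays.

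Under landiolol these lists showed 1 call against CLP among 72 tested genes in males, Rac2 higher by 0.68 (limma adjusted p = 0.0292), and 0 among 72 in females. The Rac2 call was lost in 1 of 11 other settings and when any of 7 male arrays was left out. Of the 72, limma counted 12 and 2 at an unadjusted p under 0.05, beside 14.8% and 9.34% of all probes, and SAM called 2 and 0. The other list genes called after CLP in males were not called between CLP plus landiolol and CLP, a contrast that shares the CLP arrays. Of those higher after CLP, Mgst1 differed by -0.67, Gss by -0.45 and Btrc by -0.26, and Ftl1 by 0.02, Ugt1a6 by 0.06, Ncf4 by 0.15, Sqstm1 by 0.20 and Xdh by 0.24. The dimmer probes of Sqstm1 had the other sign, at -0.18 and -0.20, and were not called. Of those lower after CLP, Ncf1 differed by 0.57, Sod3 by 0.41 and Alas1 by 0.01. Gss, Btrc, Ncf1 and Sod3 were at an unadjusted p under 0.05 in limma. Against sham, CLP plus landiolol had 7 higher and 1 lower of the 72 in males, beside 2.4% and 1.76% of all probes. In females it had 6 higher and 1 lower, beside 3% and 2.24%. At an unadjusted p under 0.05, limma counted 19 of the 72 in each sex, beside 24.2% and 26.7% of all probes. SAM called 8 and 13. By limma, Sqstm1, Ugt1a6, Ncf4 and Rac2 were called higher and Alas1 lower in both sexes. Ftl1, Xdh and Gsta1, a glutathione transferase, were higher in males, and Gss and Dpp3, a peptidase that binds KEAP1, in females. The male calls of Gsta1 and Alas1 were lost in 2 and 3 of 11 other settings, and each when any of 8 arrays was left out. The female call of Ugt1a6 was lost in 2 settings and without any of 7 arrays.

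**Figure D5:**
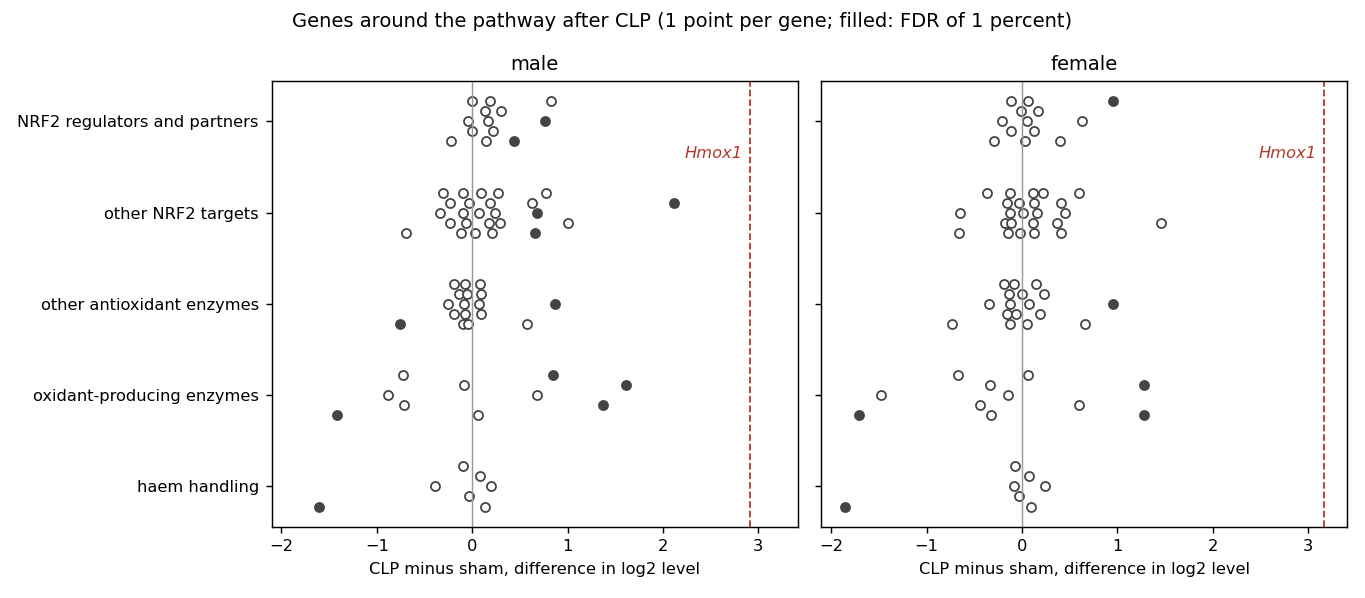
CLP minus sham in log2 level (horizontal axis) for the genes of the 5 lists (vertical axis; 1 point per gene, spread vertically for visibility) in males and females; filled points passed the FDR of 1 percent and the dashed line marks Hmox1. No gene of these lists reached the Hmox1 difference of 2.91 in males or 3.16 in females.

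Some markers of other cells moved with the groups. Of 6 macrophage markers, 3 rose after CLP in each sex: Adgre1 by 2.79 and 2.79, Lyz2 by 1.44 and 1.01, and Cd68 by 0.86 and 0.72 in males and females. The others were not called, and in males Mrc1 differed by 0.84, Cd163 by 0.26 and Csf1r by -0.07. In females the lowest of the 6 differences was -0.01. Of all probes, 3.87% were called higher and 3.94% lower in males after CLP, and 1.82% each way in females. The mean level of the 6 ran from 9.01 to 9.60 in male shams, from 9.83 to 10.75 in male CLP and from 9.49 to 10.56 in male CLP plus landiolol, where Hmox1 was lower than in CLP. In females the ranges were 8.92 to 9.53, 9.53 to 10.27 and 10.10 to 10.67. Against CLP, 0 of the 6 were called under landiolol in either sex, with 0 at an unadjusted p under 0.05 in limma and 0 by SAM. Of 5 neutrophil markers 2 could be tested, S100a8 and S100a9, both called higher after CLP in males and S100a8 in females, while Mpo, Csf3r and Cxcr2 were too dim to test. Of 4 fibroblast markers, Col1a1 and Lum fell in males by 2.11 and 1.89, and in females, where neither was called, they differed by -1.61 and -1.73. Pdgfra differed by -0.40 and -0.20 and Dcn by 0.87 and 0.77 in males and females, none called. Among erythroid markers, Slc4a1 fell by 3.25 in males and 2.96 in females, and Alas2 was too dim to test. Hbb could be tested in females only and differed by 2.60 (limma adjusted p = 0.2319). Between CLP plus landiolol and CLP in males, where Hmox1 fell, S100a8 differed by 1.06, S100a9 by 1.22, the T cell marker Cd3g by 1.24, Slc4a1 by 0.93, the endothelial marker Cdh5 by 0.56 and Pdgfra by 0.48, each at an unadjusted p under 0.05 and none called by limma, while SAM called 1 T cell marker. The same held in females for Slc4a1 at -0.93 and Pdgfra at 0.34, with none called by SAM. Of all probes, 14.8% in males and 9.34% in females were at such a p. Other male markers were not: Col1a1 differed by 0.72, Lum by 0.07, Dcn by -0.27 and Cd8a by 0.15. Cd3g had differed by -1.36 after CLP in males, and its CLP plus landiolol hearts differed from sham by -0.12. The share of these cells in the Hmox1 levels was not tested.

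Promoter sequence was available for 8 of the 10 members in the RefSeq windows of build GRCr8, which run from 250 bases before to 50 after a start of transcription. Hmox1 and Gsr are named only. The windows were searched on both strands for the core letters TGACNNNGC of an antioxidant response element (the reverse complement is GCNNNGTCA). The motif was found for 5 of the 8 genes, Gclm, Prdx1, Txnrd1, Sod2 and Nfe2l2, and for 12.06% of all 33469 windows of 300 bases. The first share counts genes, which have 9 windows, and the second counts windows. G and C made up 58.7% to 72% of the windows with a match and 43.7% to 76.7% of the others, beside a median of 51.7% over all windows. The 2 shares are therefore not alike, and enrichment was not tested. In Prdx1 the matched letters also hold TGAGTCA, the letters of an AP-1 site. Below, the 250 bases before the start are given 5′ to 3′ on the strand of the gene with the matched letters in capitals, to show how the match sits in each. The windows with the full 300 bases lie at chr2:213031885-213032184 (plus strand, Gclm), chr5:135383656-135383955 (plus, Prdx1), chr7:22755855-22756154 (minus, Txnrd1) and chr1:50050119-50050418 (minus, Sod2).
Gclm: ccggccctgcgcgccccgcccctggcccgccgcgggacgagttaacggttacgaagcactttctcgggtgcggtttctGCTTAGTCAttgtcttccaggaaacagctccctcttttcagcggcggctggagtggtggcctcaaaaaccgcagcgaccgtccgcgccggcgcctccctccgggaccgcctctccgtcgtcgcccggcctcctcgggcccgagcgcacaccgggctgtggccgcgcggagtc
Prdx1: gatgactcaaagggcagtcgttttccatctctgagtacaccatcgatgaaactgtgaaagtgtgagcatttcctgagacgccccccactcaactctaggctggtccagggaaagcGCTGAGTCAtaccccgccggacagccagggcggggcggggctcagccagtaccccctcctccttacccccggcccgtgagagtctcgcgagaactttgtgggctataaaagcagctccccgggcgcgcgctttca
Txnrd1: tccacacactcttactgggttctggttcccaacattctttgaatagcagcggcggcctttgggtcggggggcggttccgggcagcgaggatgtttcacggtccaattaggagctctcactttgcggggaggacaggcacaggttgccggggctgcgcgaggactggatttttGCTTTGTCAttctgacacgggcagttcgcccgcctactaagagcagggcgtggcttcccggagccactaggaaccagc
Sod2: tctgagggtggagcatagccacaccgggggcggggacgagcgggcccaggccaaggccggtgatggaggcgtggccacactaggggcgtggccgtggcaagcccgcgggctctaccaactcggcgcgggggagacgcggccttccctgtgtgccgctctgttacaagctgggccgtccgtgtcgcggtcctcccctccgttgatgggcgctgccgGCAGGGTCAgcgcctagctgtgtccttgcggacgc
The matched letters begin 172 bases before the start in Gclm, 135 in Prdx1, 78 in Txnrd1 and 35 in Sod2, all on the reverse strand. In Nfe2l2 the letters TGACGCCGC lie after the start. Txnrd1 has a second window, at chr7:22764802-22765101, with no match, and none was found for Nqo1, Gclc or Srxn1. Of the genes with a match, Nfe2l2 alone was called after CLP, in males, and Nqo1, with a difference of 0.85 in males, has none in this window. A match is a description of letters and not of binding.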

How the data were processed

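RNA of 32 left ventricles was hybridised to 1-colour Agilent rat arrays. For every array the authors deposited scanner intensities from Agilent Feature Extraction 10.5, with background-subtracted and mean values per spot. The authors' own quantile-normalised log2 values, also deposited, served as an alternative. Control spots and outlier spots were left out, replicate spots were averaged on the log2 scale, and quantile normalisation was done within each sex over its 16 arrays. A probe was kept if some group had it well above background on 80% or more of its arrays. The 3 groups of a sex were fitted together with limma 3.58.1 in R 4.3.3 with data.table, version 1.17.8, and the interaction on 32 arrays. Quantile scaling sets all arrays to 1 distribution, so a shift of all genes cannot be seen. The number of arrays limits the precision.

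SAM was run with 100 drawn permutations. The scripts were tested on simulated data. Figures were drawn with matplotlib. Members were named by the rule given in the report, with all members named in every comparison and, from each list, its called genes and Keap1. The members, lists, motif and tests were chosen with earlier results of these data known. Replicate numbers follow the order of the samples and pair nothing. Alternatives were the 75th percentile scaling, normexp (offset 50), other filters, slide or row as a term, array weights, fits of 2 groups, and leaving out each array. Promoter windows came from RefSeq, build GRCr8. Probe positions are on rn4, as the file headers give it. 1 marker gene is not reported here.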

Additional observations from a re-analysis of the deposited data

Results flagged for a closer look

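In 60 sets of values (a member in a group of 5 or 6 hearts), 5 had an array that stood apart by Dixon's test at its 95% level, which flags about 1 in 20 sets by chance. Female sham array 4 was low for Nfe2l2 at 11.742, and female sham array 5 was high for Sod2 at 14.035. Male CLP array 4 was high for Srxn1 at 13.692. The remaining sets were of the Gclm probe, not well above background there, with female sham array 5 at 2.591 and female CLP array 2 at 3.036.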

How the results depend on the processing

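The 57 member differences were set beside the other settings, 618 values in all. Of these, 592 kept direction and side of the threshold, 10 lost the call, 5 gained it and 11 changed sign. Each change of sign was in a difference that was not called. Other filters, fits of 2 groups and SAM used the same differences, so there only the call could change and a kept direction shows nothing. Hmox1 after CLP stayed called in both sexes under all the settings. In males after CLP, 2 members were called, and 4 at an FDR of 5%. Nfe2l2 lost the call, leaving 1, with 75th percentile scaling, no filter, only the groups compared, or slide or row as a term. It was also lost with the authors' table and with SAM. Nqo1 gained the call in 1 of the 11 other settings. When any 1 of the 16 male arrays was left out, Hmox1 kept the call. Nfe2l2 lost it for 12 of these arrays, and Txnrd1 gained it for 1. The male count under landiolol against CLP, 1, became 2 with array weights. The male count under landiolol against sham, 0, became 1 with normexp, array weights, SAM or an FDR of 5%, and 0 to 1 without an array. The female count for it, 1, became 0 with no filter, row as a term or the authors' table, and 0 to 1 without an array: every sham array, CLP array 2, or treated array 1, 3, 5 or 6. For males against sham, the call appeared without CLP array 1 or treated array 5. Nfe2l2 in males kept its call without sham array 2, CLP array 1 or 2, or treated array 5. The cause was not tested.

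Signs changed as follows. After CLP in males, Gsr was 0.003 with normexp and 0.031 in the authors' table, and Prdx1 -0.001 with row, -0.021 with array weights and -0.057 in the authors' table. After CLP in females, Sod2 was -0.007 with row and -0.058 in the authors' table, and Gclc -0.022 with array weights. Female CLP plus landiolol against sham gave Nqo1 0.026 with normexp and 0.225 with row, and Gsr -0.04 with row. Leaving out 1 array gave, after CLP in males, Gclc -0.197 to 0.071, Srxn1 -0.144 to 0.375, Gsr -0.109 to 0.05 and Prdx1 -0.169 to 0.181, and in females Gclc -0.222 to 0.458 and Sod2 -0.031 to 0.164. For landiolol against CLP it gave Gclc -0.222 to 0.004 and Srxn1 -0.514 to 0.013 in males and Srxn1 -0.38 to 0.039 in females. Against sham it gave Srxn1 -0.328 to 0.131 in males, and Nfe2l2 -0.011 to 0.178, Nqo1 -0.149 to 0.117 and Sod2 -0.151 to 0.044 in females. The sex difference of Hmox1 after CLP ran from -0.46 to 0.034. No paired analysis was possible because replicate numbers follow accession order. Gclm, not above background, could not be tested.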
